A study of Mus musculus with 9 samples.

Results

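Galectins are lectins that bind galactose-containing glycans, and CD44 is a cell surface receptor for the matrix polysaccharide hyaluronan. Expression of 4 galectin genes (Lgals1, Lgals3, Lgals8 and Lgals9), of Lgals3bp, which encodes a secreted glycoprotein bound by galectin-3, and of Cd44 was followed in mouse neurons, native neural stem cells (NSCs) and the stem-like cells obtained from neurons by YAP (yNSCs). These 6 genes, of 18193 named genes on the array, were chosen by name after their differences between the 3 kinds of cells had been seen in these same arrays. Their values are therefore given as a description, not as tests, and support nothing by themselves. They are read by 11 of the 45101 probe sets, and each gene is represented by its probe set of highest average signal, with the others as a check.

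The 9 Affymetrix Mouse430_2 arrays fall into 3 groups of 3, and per the labels samples A, B and C of a group are biological replicas. Neurons were cortical neurons in neuron medium, that is Neurobasal with B27, glutamine, antibiotics and AraC (cytosine arabinoside, which kills dividing cells). NSCs were native neural stem cells in NSC medium, that is DMEM/F12 and N2 supplement with heparin and the murine growth factors EGF and bFGF, besides glutamine and antibiotics. The yNSCs came from cortical neurons given lentiviral vectors for rtTA and for wild-type YAP under doxycycline control, and were grown in NSC medium. By the study's methods the neurons came from late embryos or newborn pups, cultures meant for conversion were infected before AraC, and yNSCs were passaged without doxycycline after the first spheres. The lentiviral vectors act in any infected cell and are not restricted to neurons. The paper also labelled neurons genetically with Syn1-Cre or Thy1-Cre. It reports that yNSC spheres from them carried the label and native NSCs did not, and concludes that yNSCs originate from neurons. Neurons thus differ from both other groups in medium as well as in cell type, and these cannot be told apart, while NSCs and yNSCs share their medium. The strain and the number of animals behind each sample are not given in the sources used here.

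Each value is an RMA signal on the log2 scale, so that a difference of 1 is a 2-fold difference. Differences between groups are the first group minus the second, with the standard error (SE) of a linear model of all 9 arrays. Among all genes, "called" means a Benjamini-Hochberg adjusted p under 0.05 over the 18193 genes in limma's moderated test. For the members chosen by name, a call only shows where this threshold falls. It is not read as a test, since they were chosen on these values. A gene is called near background in a group where its mean lies below the lower quartile of those arrays, averaged over the group (3.71 in neurons, 3.43 in NSCs and 3.49 in yNSCs), and the size of a difference from there is uncertain. With 3 arrays against 3 no exact two-sided permutation p can go below 0.1, and the number of arrays limits the precision.

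Galectins are made in the cytosol and leave the cell without a signal peptide. Outside, they cross-link glycoproteins such as integrins and tune adhesion and signalling, and inside they mark damaged endosomes and lysosomes whose glycans have become exposed. CD44 anchors hyaluronan, and its cytoplasmic tail reaches the actin cytoskeleton through ezrin, radixin and moesin. Galectin-1 and CD44 are both known from adult neural stem cells and astrocytes, and galectin-3 is known in the brain mainly from activated microglia and reactive astrocytes. Variable exons give CD44 many isoforms.

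Promoter sequences are shown for the pair of genes with the largest differences, Lgals3 in yNSCs against NSCs and Cd44 in yNSCs against neurons. They come from the RefSeq table for GRCm38.p6, which held an entry for 5 of the 6 genes, run 5′ to 3′ on the gene's own strand, end at the base before the annotated gene and carry each CG dinucleotide in capitals. The Lgals3 stretch is chr14:47373610-47373859 on the plus strand, before a protein-coding gene at positions 47373860 to 47386167. The Cd44 stretch is chr2:102901670-102901915 on the minus strand, before a protein-coding gene at positions 102811141 to 102901669.
Lgals3: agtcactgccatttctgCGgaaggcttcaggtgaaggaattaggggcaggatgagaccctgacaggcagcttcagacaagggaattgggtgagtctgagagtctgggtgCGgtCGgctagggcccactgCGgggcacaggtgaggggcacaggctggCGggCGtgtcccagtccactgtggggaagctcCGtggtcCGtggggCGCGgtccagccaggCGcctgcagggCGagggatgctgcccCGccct
Cd44: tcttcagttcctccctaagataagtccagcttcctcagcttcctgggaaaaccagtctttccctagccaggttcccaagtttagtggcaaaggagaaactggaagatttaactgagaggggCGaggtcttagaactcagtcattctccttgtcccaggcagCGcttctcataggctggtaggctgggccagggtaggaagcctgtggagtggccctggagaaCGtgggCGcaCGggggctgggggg

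The 250 bases before the listed start held 13 CG dinucleotides and 66.0% G or C in Lgals3, against 5 and 56.4% in Cd44, 4 and 49.2% in Lgals8, 3 and 58.4% in Lgals9, and 2 and 55.6% in Lgals3bp. Over the 32851 promoters of the table the medians were 6.0 CG dinucleotides and 52.4%, with quartiles of 2.0 and 16.0 dinucleotides and of 45.2% and 61.2%. The window of Lgals8 lies inside the annotated span of that gene and so precedes an internal start. A search on both strands for GGAATG (the TEAD motif, TEAD being the DNA-binding partner of YAP), TGANTCA (AP-1) and TTCNNNGAA (STAT) found none of them in the 250 bases of any of these 5 genes. Of all promoters 12.6%, 6.7% and 7.0% hold the 3 motifs, so most windows of this length lack each of them, and the result says only that these letters are not in these windows.

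Lgals3, which encodes galectin-3, had the largest difference of the 6 genes in any comparison. It read 9.99, 9.65 and 9.48 in neurons A, B and C, 4.71, 4.30 and 4.41 in the NSCs, and 11.53, 11.85 and 12.17 in the yNSCs. No 2 groups overlapped, with NSCs lowest, neurons between and yNSCs highest. Such separation was common. Of all genes, 36.8% lay wholly higher and 30.2% wholly lower in yNSCs than in neurons. The shares were 33.5% and 35.6% for NSCs against neurons, and 29.6% and 21.9% for yNSCs against NSCs. The difference of yNSCs from NSCs was 7.38 (SE 0.180), or 166-fold, and held rank 1 from the top among all 18193 genes. NSCs lay 37.6-fold below neurons (-5.23, rank 118 from the bottom), and yNSCs lay 4.42-fold above them (2.14). The NSC mean of 4.47 lay above the lower quartile of those arrays, 3.43. A single probe set reads Lgals3, so its values had no check by another.

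Lgals1, which encodes galectin-1, was high in both stem cell groups. It read 9.47, 9.83 and 9.32 in neurons, 13.60, 13.43 and 13.39 in NSCs, and 13.79, 13.84 and 13.78 in yNSCs. The NSC and yNSC arrays stood roughly 4 log2 units above every neuron array and close to each other. The difference from neurons was 4.26 in yNSCs and 3.93 in NSCs (SE 0.130 each), which is 19.2-fold and 15.3-fold. Between yNSCs and NSCs it was 0.33, with the groups apart but the gene not called. It was called without neuron replicate B or C or NSC replicate A (0.33 to 0.39). The second Lgals1 probe set had group means of 8.88, 12.98 and 13.41 in the same order.

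Lgals8 encodes galectin-8, which binds damaged lysosomes and recruits autophagy receptors to them. Its values were 7.03, 7.06 and 7.46 in neurons, 6.61, 7.69 and 7.64 in NSCs, and 9.12, 9.11 and 9.19 in yNSCs. The yNSC arrays were above all others, while neurons and NSCs overlapped and NSC replicate A was the lowest of the 9. The yNSC mean exceeded that of neurons by 1.96 and that of NSCs by 1.83 (SE 0.239 each), or 3.88-fold and 3.55-fold. NSCs and neurons differed by 0.13, and by 0.48 without NSC replicate A, when the gene was called. This difference ran from -0.26 to 0.48 over the alternatives described at the end, so its sign was not settled. The second Lgals8 probe set had means of 5.98 in neurons, 5.32 in NSCs and 7.92 in yNSCs, so it gave yNSCs as highest too but put NSCs below neurons, at -0.66.

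Lgals9, the gene of galectin-9, a ligand of the immune receptor TIM-3, was the one member lower in yNSCs than in neurons. It read 4.52, 4.68 and 4.64 in neurons, 3.35, 3.52 and 3.19 in NSCs, and 3.53, 3.73 and 3.60 in yNSCs. All neuron arrays were above all others, and the highest NSC array lay just below the lowest yNSC array. The NSC mean was near background and the yNSC mean of 3.62 barely above it. The differences from neurons, -0.99 in yNSCs and -1.26 in NSCs (SE 0.113 each), are therefore uncertain in size. Between yNSCs and NSCs the difference was 0.27, not called with all arrays and called at 0.35 without NSC replicate B and at 0.31 after centring on the median of all probe sets.

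Lgals3bp had the same order of groups as Lgals3 on a smaller scale. It read 5.98, 6.22 and 5.75 in neurons, 4.36, 4.52 and 4.63 in NSCs, and 6.12, 6.52 and 6.73 in yNSCs. NSCs lay below all other arrays, whereas neurons and yNSCs overlapped. The difference was 1.95 between yNSCs and NSCs (SE 0.165, 3.87-fold), -1.48 between NSCs and neurons, and 0.47 between yNSCs and neurons. That last difference was called with all 9 arrays and no longer called when neuron replicate A or C, or yNSC replicate B or C, was left out (0.34 to 0.47).

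Cd44 was lowest in neurons, higher in NSCs and highest in yNSCs. It read 5.95, 5.78 and 5.40 in neurons, 9.41, 9.00 and 9.09 in NSCs, and 11.85, 11.77 and 11.77 in yNSCs. No groups overlapped, which was common among all genes, with the shares given for Lgals3. The yNSC mean was 68.0-fold above that of neurons (6.09, SE 0.149), rank 10 from the top of all genes, and 6.19-fold above that of NSCs (2.63). NSCs exceeded neurons by 3.46.

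**Figure D1:**
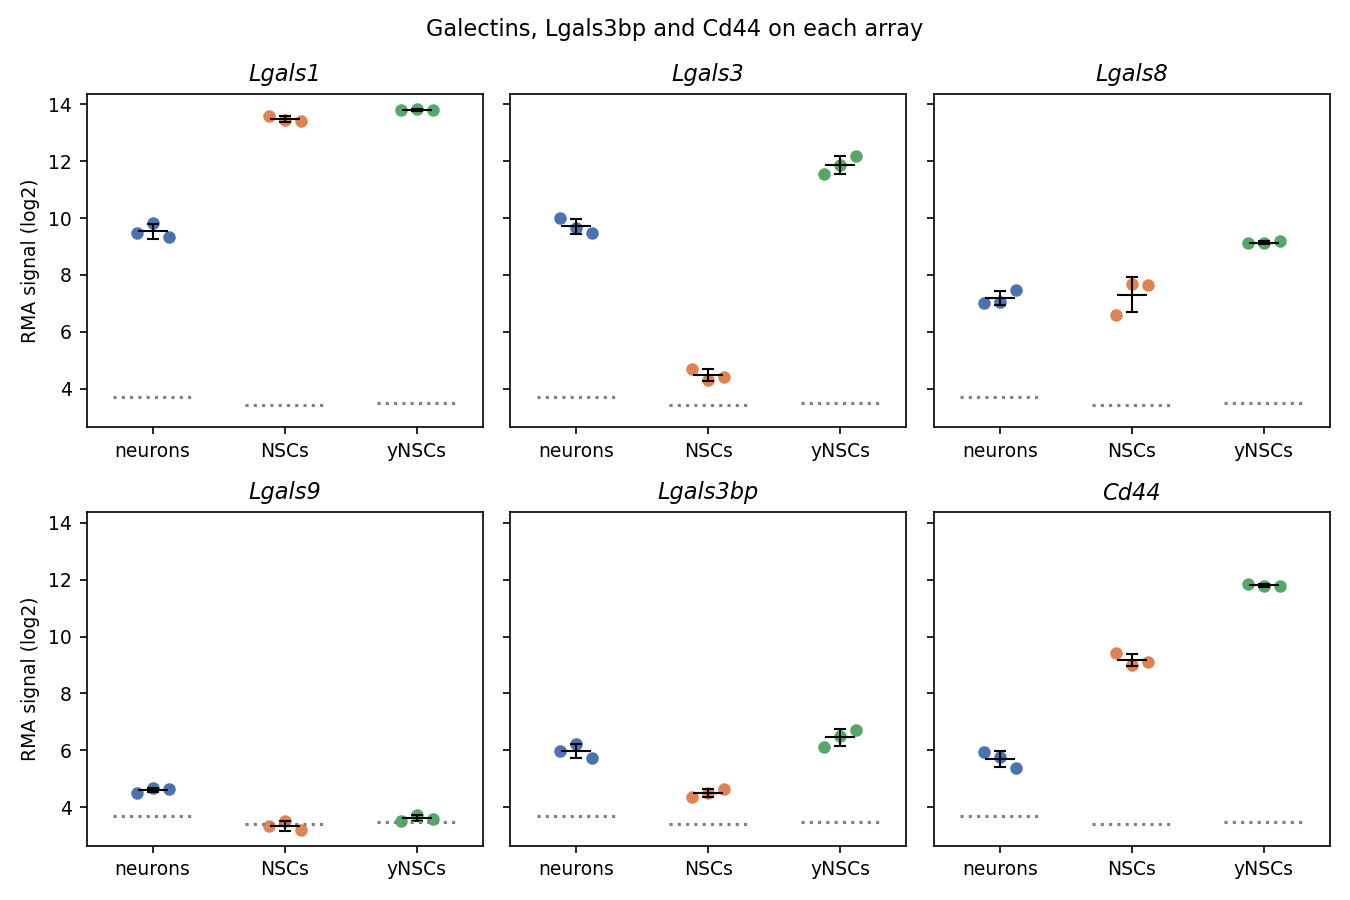
RMA signal (log2) of the 6 genes on each of the 9 arrays, with points for single arrays, bars for mean and SD (n = 3) and dotted lines for the mean lower quartile of each group's arrays. Lgals3 runs from 4.30 in the lowest NSC array to 12.17 in the highest yNSC array, Cd44 climbs from neurons to yNSCs, and Lgals9 reaches the dotted lines in NSCs.

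The 4 probe sets of Cd44 did not move alike. A second one, 1423760_at, followed the first closely, with means of 6.09, 8.87 and 11.61 in neurons, NSCs and yNSCs. Another, 1452483_a_at, had means of 3.93, 5.10 and 9.997, so that its difference between yNSCs and NSCs, 4.90, was larger than the 2.63 and 2.74 of the first pair. Its 3 values lay at 3.85, 3.62 and 4.32 in neurons, 4.73, 5.32 and 5.25 in NSCs and 9.76, 9.95 and 10.28 in yNSCs. The last, 1443265_at, stayed near background in every group, with means of 2.78, 2.28 and 2.47, and its difference of NSCs from neurons, -0.50, had the opposite sign to that of the first. Which transcript forms of Cd44 each probe set reads was not examined, and levels of different probe sets are not compared.

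**Figure D2:**
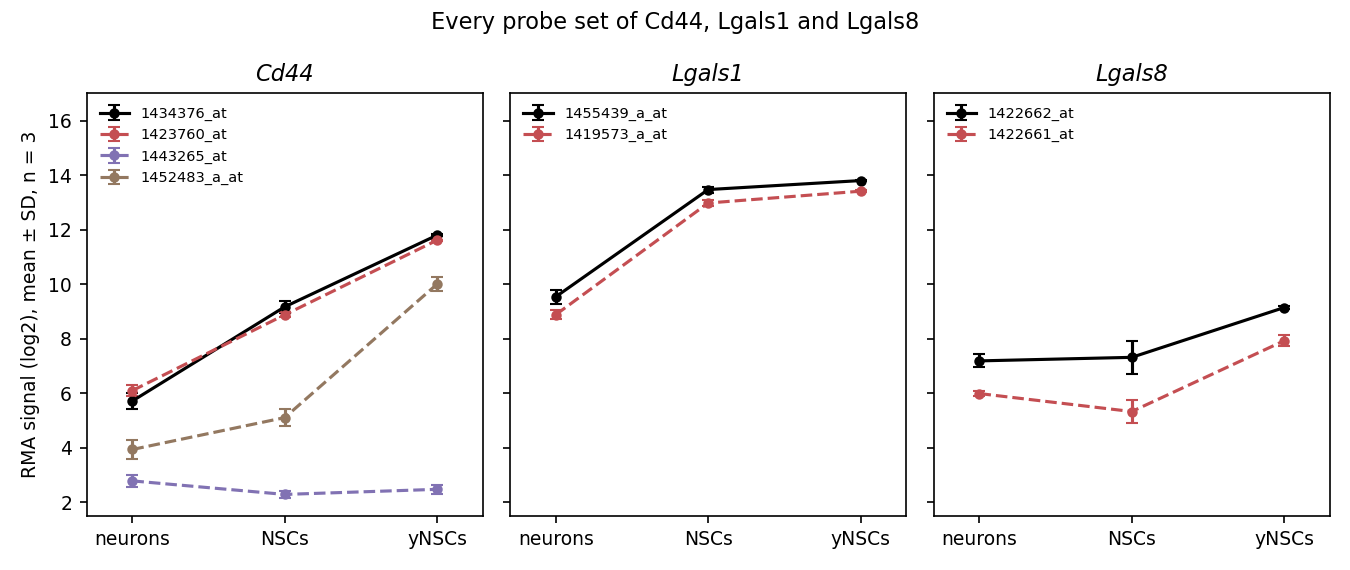
Group means (log2, error bars SD, n = 3) of every probe set of Cd44, Lgals1 and Lgals8, with a solid line for the probe set that stands for the gene and lines only joining the groups of 1 probe set. The Cd44 probe set 1452483_a_at steps up by 4.90 from NSCs to yNSCs, more than the others, and both Lgals8 probe sets are highest in yNSCs.

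Between yNSCs and neurons 5 of the 6 members were called higher and 1 lower, where 34.6% of all genes were called higher and 27.9% lower. Between NSCs and neurons 2 were called higher, 3 lower and 1 not, where 33.3% and 34.1% of all genes were called. Between yNSCs and NSCs 4 were called higher and 2 not, where 21.3% of all genes were called higher and 18.0% lower. Because the genes were selected on these differences, nothing is read from these counts. The median difference of the members was 2.05, -0.56 and 1.89 in the 3 comparisons, against -0.01, -0.07 and 0.07 over all genes. The first pair of comparisons share the neuron arrays, and each of the 3 groups serves in 2 of them. When each array was centred on the median of its named genes the median of all genes moved to -0.19 for yNSCs against neurons, and 41.6% of calls there were in the higher direction, against 55.3% as deposited. No member that was called changed direction under that centring.

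**Figure D3:**
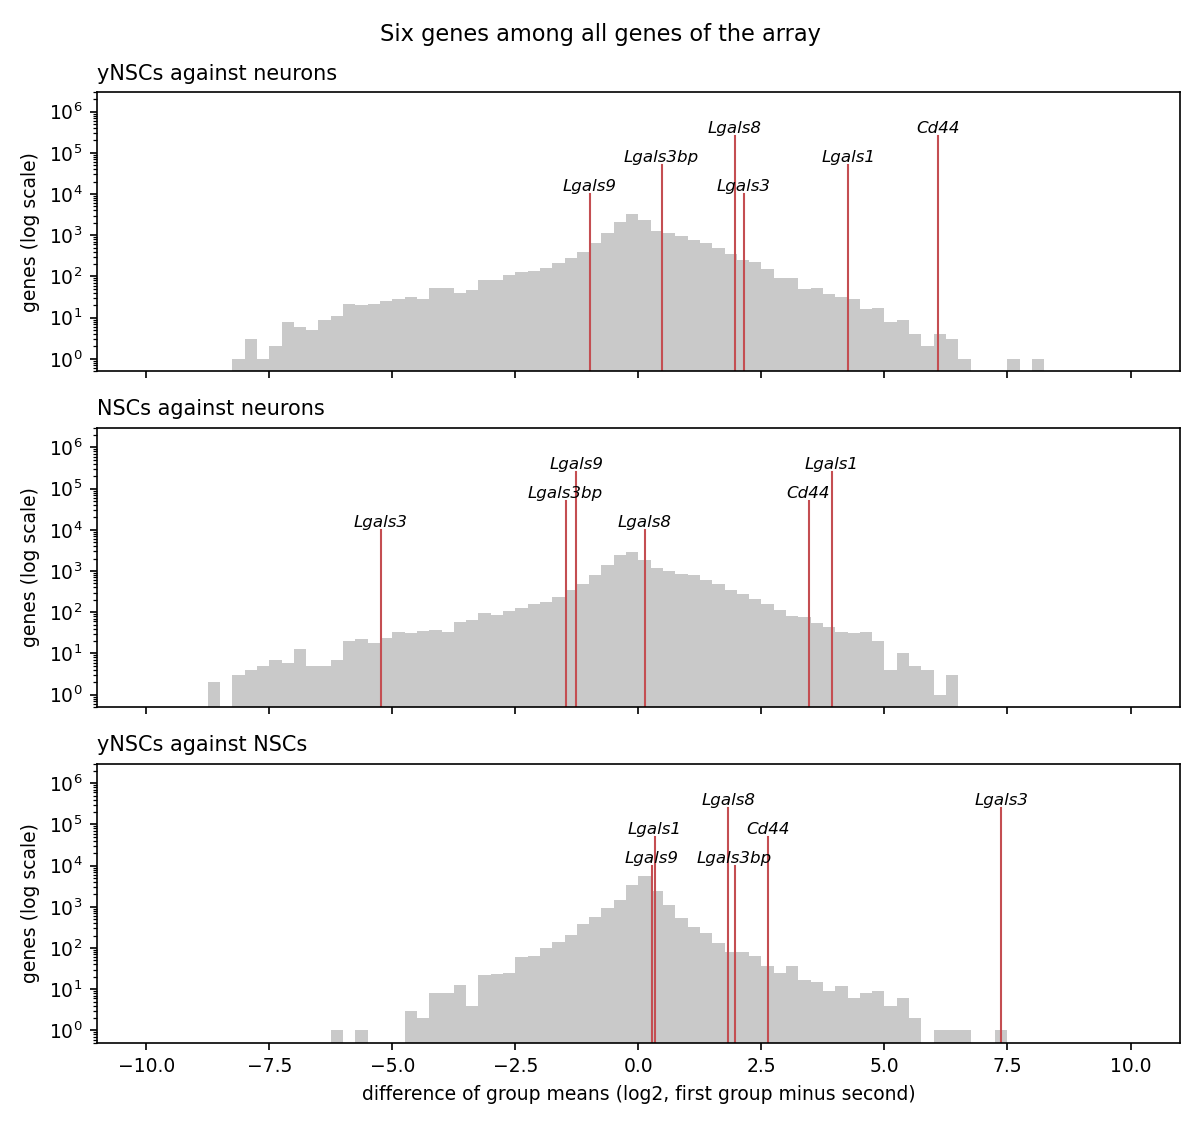
Distribution of the difference of group means (log2, 0.25 per bar, log scale for the number of genes) over all 18193 genes in the 3 comparisons, with the 6 members marked by lines of arbitrary height. Lgals3 stands at the far right for yNSCs against NSCs at 7.38, and Cd44 near the right end for yNSCs against neurons at 6.09.

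The other galectin genes were read first by their main probe sets, and are not compared with the members, which were chosen on their differences. Of 7 further family genes, 6 were measured, and none was called between NSCs and neurons or between yNSCs and NSCs. With probe sets averaged per gene, 1 rose and 2 fell between NSCs and neurons and 2 rose between yNSCs and NSCs. Between yNSCs and neurons Lgals2 rose by 0.47 (adjusted p = 0.00324) and Lgals4 rose by 0.44 (adjusted p = 0.0338), and Lgalsl, which encodes a galectin-related protein, fell by 0.45 (adjusted p = 0.0222). The call of Lgals4 was lost without neuron replicate A or C or yNSC replicate A (0.24 to 0.46), and that of Lgalsl without neuron replicate A or B or yNSC replicate C (-0.40 to -0.33). The second Lgalsl probe set, of lower mean, differed from neurons by -0.82 in yNSCs and -0.83 in NSCs. Lgals7, Lgals12 and Grifin were not called in any comparison. A second Lgals2 probe set, singled out after its values were seen, read 3.42, 3.04 and 3.17 in neurons, 3.79, 3.43 and 3.79 in NSCs, and 6.0, 6.07 and 5.99 in yNSCs. It put yNSCs above neurons by 2.81 and above NSCs by 2.35, whereas the Lgals2 probe set with the higher mean differed by 0.47 and 0.28. The neuron mean of this second probe set, 3.21, was near background, so the size of the first difference is uncertain, and its name ends in s_at, which marks probe sets that may match several transcripts.

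The genes that work with galectins and CD44 were taken as 8 lists, fixed by function, with 72 of 77 genes measured. Over all of them 31 were called higher and 19 lower between yNSCs and neurons, 30 and 27 between NSCs and neurons, and 22 and 12 between yNSCs and NSCs. Of all genes, 34.6% were called higher and 27.9% lower, 33.3% and 34.1%, and 21.3% and 18.0% in these comparisons. Counts of single lists below stand beside these shares and are not read as particular to a list. The median differences of the 72 genes, 0.16, -0.08 and 0.06, lay close to those of all genes. The lists were drawn up with earlier results of these arrays known, and all p-values below are limma's, adjusted over all 18193 genes.

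Glycoproteins that carry galectin ligands changed in both directions. Of 14, 7 rose and 5 fell between yNSCs and neurons (median 0.33), 5 rose and 8 fell between NSCs and neurons (median -0.50), and 9 rose and 2 fell between yNSCs and NSCs (median 0.50). The neuronal adhesion molecule L1cam fell by 5.87 in yNSCs and fell by 6.37 in NSCs against neurons (adjusted p = 5.83e-11 and 2.8e-11), and Alcam fell by 2.68 and 3.21. Itgb1, the integrin beta 1 subunit, rose by 2.54 in yNSCs against neurons (adjusted p = 9.32e-10). Itga6, an alpha subunit that pairs with it in laminin receptors, was at 8.04 ± 0.10 in neurons, 10.93 ± 0.18 in NSCs and 8.67 ± 0.01 in yNSCs (SD, n = 3), so it rose by 2.89 in NSCs against neurons and was lower in yNSCs than in NSCs (-2.27, adjusted p = 1.68e-08). The lysosomal membrane protein gene Lamp2 rose by 0.80 between NSCs and yNSCs and Bsg, which encodes basigin, rose by 1.34. Ncam1 fell by 4.07 in yNSCs against neurons, but a further probe set of it went the other way, at 1.77.

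Enzymes that build the N-glycans galectins bind gave no common direction. Of 14, 5 rose and 4 fell between yNSCs and neurons, 7 rose and 5 fell between NSCs and neurons, and 3 rose and 2 fell between yNSCs and NSCs, with medians of 0.02, 0.19 and 0.03. St3gal4, which caps galactose with sialic acid, rose by 2.40 in yNSCs against neurons (adjusted p = 7.19e-08) and by 1.14 in yNSCs against NSCs (adjusted p = 0.000144). Mgat3, which adds the bisecting N-acetylglucosamine, fell by 1.76 in yNSCs and by 1.42 in NSCs against neurons. Man2a1, a Golgi mannosidase that trims the core before branching, stood higher in NSCs than in the other groups, with 1.54 against neurons and -1.41 for yNSCs against NSCs (adjusted p = 3.44e-07 and 2.76e-06). Mgat5, whose branches are high-affinity galectin ligands, did not pass in yNSCs against neurons (-0.24, adjusted p = 0.200), but passed after quantile normalization (-0.53) and after centring on the named genes (-0.43).

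Proteins that respond with galectins to damaged lysosomes included some with the group order of Lgals3. Of 7 measured, 1 rose and 2 fell between yNSCs and neurons, 2 rose and 4 fell between NSCs and neurons, and 3 rose and 1 fell between yNSCs and NSCs (medians 0.17, -0.36 and 0.02). Sqstm1, the autophagy receptor p62, was at 10.58 ± 0.13 in neurons, 8.81 ± 0.14 in NSCs and 10.81 ± 0.25 in yNSCs (SD, n = 3). It fell by 1.76 in NSCs against neurons and rose by 1.997 in yNSCs against NSCs (adjusted p = 2.08e-07 and 2.82e-07), and did not pass between yNSCs and neurons (0.23, adjusted p = 0.158), although the mean of its probe sets did (0.89). Tax1bp1, a further receptor, rose by 1.36 in yNSCs against NSCs. Trim16, which encodes a partner of galectin-3 in this response, rose by 2.32 in yNSCs and by 1.497 in NSCs against neurons and by 0.82 between the stem cell groups. Map1lc3b, the LC3B gene, fell by 1.36 and 1.37 against neurons.

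**Figure D4:**
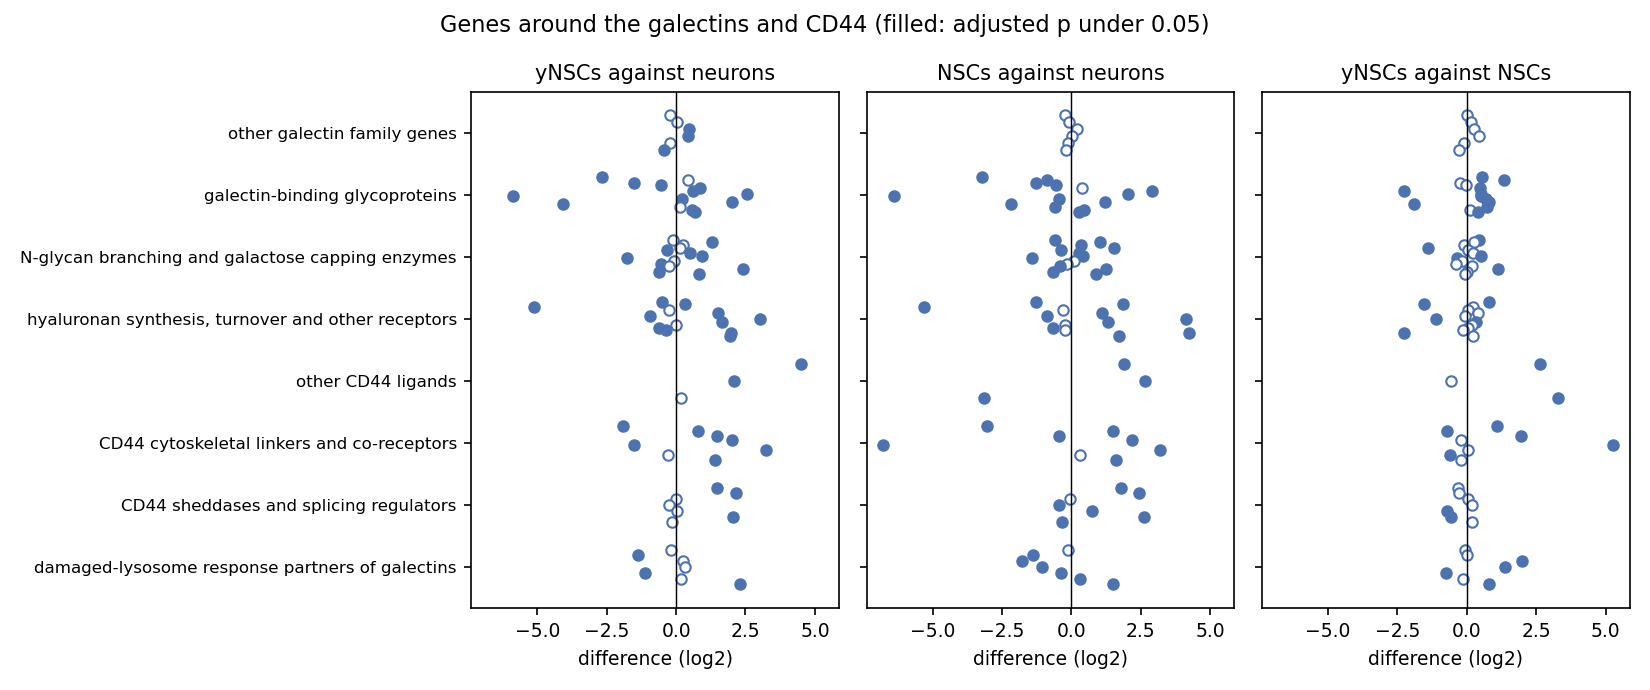
Difference of group means (log2) of each measured gene in the 8 lists around galectins and CD44, 1 panel per comparison, with filled points for genes with an adjusted p under 0.05. The lists spread to both sides of 0, and the far points include Met at -6.77 for NSCs against neurons and 5.27 for yNSCs against NSCs.

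Hyaluronan genes also went both ways. Of 13 measured, 6 rose and 5 fell between yNSCs and neurons, 6 rose and 4 fell between NSCs and neurons, and 2 rose and 3 fell between yNSCs and NSCs, with medians of -0.01, -0.21 and 0.06. Hapln1, which links hyaluronan to proteoglycans in perineuronal matrix, fell by 5.11 in yNSCs and by 5.32 in NSCs to near background (adjusted p = 4.7e-12 and 2.54e-12). Tnfaip6, whose product crosslinks hyaluronan, stood at 3.66 ± 0.14 in neurons, 7.89 ± 0.12 in NSCs and 5.62 ± 0.32 in yNSCs, and so differed by -2.27 between yNSCs and NSCs (adjusted p = 2.65e-07). Hmmr, a hyaluronan-binding protein of the mitotic spindle, rose by 3.02 in yNSCs and 4.14 in NSCs against neurons and was lower in yNSCs than in NSCs (-1.11, adjusted p = 0.00255). The hyaluronan synthase gene Has2 did not pass between yNSCs and NSCs (0.40, adjusted p = 0.144).

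Of the 3 other CD44 ligands measured, 2 rose and none fell in yNSCs against neurons, 2 rose and 1 fell in NSCs against neurons, and 2 rose and none fell in yNSCs against NSCs, with medians of 2.10, 1.88 and 2.62. The median of 2.10 is that of Lama5, a laminin chain gene, whose neuron arrays were far apart at 4.22, 5.39 and 6.38. Another Lama5 probe set went the other way in yNSCs against neurons, at -0.32. Fn1, fibronectin, had the stepwise order of Cd44, with 6.28 ± 0.11 in neurons, 8.16 ± 0.11 in NSCs and 10.78 ± 0.19 in yNSCs (SD, n = 3). It rose by 4.50 in yNSCs and by 1.88 in NSCs against neurons and by 2.62 between NSCs and yNSCs (adjusted p = 2.17e-11, 3.84e-08 and 1.07e-08). Srgn, the proteoglycan serglycin, had the order of Lgals3bp, with 6.32 ± 0.20 in neurons, 3.18 ± 0.16 in NSCs and 6.48 ± 0.28 in yNSCs. It was near background in NSCs and rose by 3.30 in yNSCs against NSCs (adjusted p = 1.22e-08).

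Among 8 linkers and co-receptors of CD44, 5 rose and 2 fell between yNSCs and neurons, 4 rose and 3 fell between NSCs and neurons, and 3 rose and 2 fell between yNSCs and NSCs (medians 1.08, 0.90 and -0.07). Msn, which encodes moesin, rose by 3.24 in yNSCs and by 3.18 in NSCs against neurons (adjusted p = 9.31e-11 and 9.61e-11). Ezr, ezrin, rose by 1.95 in yNSCs against NSCs (adjusted p = 1.37e-06). Met, the receptor of hepatocyte growth factor, which can use CD44 isoforms as co-receptor, read 10.29, 10.18 and 10.29 in neurons, 3.65, 3.21 and 3.58 in NSCs, and 8.74, 8.75 and 8.76 in yNSCs. NSCs lay far below both other groups for Met, with a difference of -6.77 from neurons and of 5.27 for yNSCs against NSCs (adjusted p = 9.67e-13 and 1.07e-10), and Met fell by 1.503 between neurons and yNSCs. The NSC mean of Met, 3.48, lay barely above the lower quartile of those arrays, 3.43. The sizes of both differences from NSCs are therefore uncertain.

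Of 7 measured genes that cut CD44 or splice its RNA, 3 rose and none fell in yNSCs against neurons, 4 rose and 2 fell in NSCs against neurons, and none rose and 2 fell in yNSCs against NSCs, with medians of 0.05, 0.75 and -0.28. The sheddase gene Mmp14 is counted as fallen in yNSCs against NSCs (-0.58), but another probe set of it gave 1.05. With probe sets averaged per gene, 1 rose and 1 fell there, and 5 rose in yNSCs against neurons. The sheddase gene Adam17 rose by 2.15 in yNSCs and by 2.43 in NSCs against neurons (adjusted p = 7.57e-09 and 2.39e-09), and Adam10 rose by 1.47 and 1.79, although another Adam10 probe set gave -0.46 for NSCs. Khdrbs1, which encodes the splicing regulator SAM68, fell by 0.70 in yNSCs against NSCs (adjusted p = 0.000162). Esrp1, an epithelial splicing factor that favours variable exons of CD44, did not pass in NSCs against neurons (-0.05, adjusted p = 0.697) and was near background.

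The genes whose profiles over the 9 arrays were most like those of the members were ranked by the root mean square difference of the centred values. For Lgals3, the nearest were Gfap, the intermediate filament of astrocytes, at 0.85, Vgf at 0.93 and Abhd3 at 0.96. For Lgals1 they were Ccnd1, Sgms2 and Fam111a (0.22 each). Gfap differed by 5.42 between yNSCs and NSCs, where Lgals3 differed by 7.38. The nearest to Cd44 were Ltbp1 at 0.35, Id1 at 0.37 and Tcim at 0.48. Those of Lgals8 were Stbd1, Gnpda2 and Lrrc51 (0.22 to 0.23), those of Lgals3bp were Gpr137b, Chil1 and Cyp2d22 (0.17 to 0.19), and those of Lgals9 were Pnpla1, Rab11b and Tshr (0.08 each). These distances depend on how far each member's own values range, and they are not compared between members.

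The arrays measured RNA of whole cultures, in which fewer cells of a type and less RNA per cell cannot be told apart. The labels held against neuron markers, whose list mean per array ran from 11.17 to 11.26 in neurons, 5.78 to 5.92 in NSCs and 5.94 to 6.03 in yNSCs, and against NSC markers, at 8.67 to 8.77, 10.29 to 10.52 and 10.32 to 10.36. By their main probe sets all 8 neuron markers fell and 7 of 8 NSC markers rose in both yNSCs and NSCs against neurons. Between yNSCs and NSCs 3 neuron markers rose and 3 fell, while 1 NSC marker rose and 3 fell. Another Map2 probe set rose by 1.90 in NSCs against neurons, where the counted one fell by 0.65. Another Syp probe set rose by 0.80 in yNSCs against NSCs, where the counted one fell by 0.67. Yap1 was at 7.29 ± 0.29 in neurons, 9.72 ± 0.18 in NSCs and 9.18 ± 0.02 in yNSCs (SD, n = 3), and whether its probe set reads the introduced gene was not examined. Arrays of a group correlated at 0.992 to 0.998. The Actb control probe sets read 0.56 to 0.70 higher at the 3′ than at the 5′ end in NSCs, against 0.03 to 0.31 in the other groups.

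Markers of other cells moved with some members. Of 15 microglia and macrophage markers measured, 13 fell and none rose in yNSCs against neurons, 14 fell and 1 rose in NSCs against neurons, and 8 rose and 1 fell in yNSCs against NSCs. The mean of this list per array was 7.17 to 7.57 in neurons, 4.01 to 4.08 in NSCs and 4.75 to 4.85 in yNSCs, with 1, 5 and 3 of the 15 near background. Aif1, a defining marker, was at 2.76 to 2.91 in yNSCs, near background, and C1qa at 4.82 to 5.13, against 10.12 to 10.59 in neurons. Cd68, a lysosomal protein of phagocytes, read 9.26, 9.35 and 8.84 in neurons, 3.96, 4.52 and 4.18 in NSCs and 8.24, 8.40 and 8.62 in yNSCs, so that NSCs were lowest as for Lgals3 but yNSCs lay below neurons (-0.73, adjusted p = 0.00258 in limma). The means of Lgals3 and Lgals3bp were higher in yNSCs than in neurons while the list mean was lower, and the part of such cells in the neuron values of Lgals3, Lgals9 and Lgals3bp was not tested.

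Of 8 astrocyte markers, 3 rose and 2 fell in yNSCs against neurons, 1 rose and 5 fell in NSCs against neurons, and 5 rose and 1 fell in yNSCs against NSCs. With probe sets averaged per gene, 5 rose in yNSCs and 2 in NSCs against neurons. Slc1a3 fell by 1.38 in NSCs against neurons, but other probe sets of it rose there (0.31, 0.95 and 2.1). Between yNSCs and NSCs it rose by 1.15, and another probe set gave -1.1. The list mean was 9.68 to 9.80 in neurons, 7.73 to 8.36 in NSCs and 9.64 to 9.82 in yNSCs, the same order as for Lgals3 in that NSCs were lowest, and no marker of it was near background. Of 14 interferon response genes measured, 13 rose and none fell in yNSCs against neurons, 3 rose and 1 fell in NSCs against neurons, and 12 rose and none fell in yNSCs against NSCs. Their mean was 4.49 to 4.53 in neurons, 4.58 to 4.79 in NSCs and 6.82 to 7.67 in yNSCs, with 4, 3 and 1 near background. The yNSC array lowest in this list, replicate A at 6.82, was also the lowest yNSC array for Lgals3 and Lgals3bp, and the highest, replicate C, was the highest for both. By their main probe sets Cd44 (11.85, 11.77 and 11.77) and Lgals8 (9.12, 9.11 and 9.19) did not have this order. The Cd44 probe set 1452483_a_at (9.76, 9.95 and 10.28) and the second Lgals8 probe set (7.79, 7.82 and 8.15) did have it. Cd68, Tagln and Acta2 were also lowest in A and highest in C. An order of 3 arrays is easily shared, and nothing is read from it. The part of astrocyte-type or interferon-linked expression in the values of Lgals3, Lgals3bp, Lgals8 and Cd44 was not tested.

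Fibroblast and mural cell markers had list means of 5.01 to 5.13 in neurons, 5.47 to 5.50 in NSCs and 5.6 to 5.69 in yNSCs, with 3, 1 and 2 of 10 near background. Of the 10, 3 rose and 6 fell in yNSCs against neurons, 5 rose and 1 fell in NSCs against neurons, and 4 rose and 4 fell in yNSCs against NSCs. The list was uneven within itself. The collagen genes Col1a1 and Col3a1, which define fibroblasts, were at 3.91 to 4.02 and 2.73 to 3.34 in yNSCs. The contractile genes Tagln and Acta2 had the stepwise order of Cd44, with Tagln at 5.72 ± 0.25 in neurons, 7.14 ± 0.06 in NSCs and 11.93 ± 0.26 in yNSCs, and Acta2 at 5.95 ± 0.41, 9.10 ± 0.36 and 10.79 ± 0.13 (SD, n = 3). They rose by 6.21 and 4.83 in yNSCs against neurons, although another Acta2 probe set gave -0.33 for NSCs against neurons, and the part of cells with these genes in the values of Cd44 was not tested. Endothelial markers had list means between 3.67 and 3.86 on every array, with 4 of 8 near background in each group. Of these 8, none rose and 2 fell in yNSCs against neurons, 3 rose and 2 fell in NSCs against neurons, and 1 rose and 1 fell in yNSCs against NSCs.

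**Figure D5:**
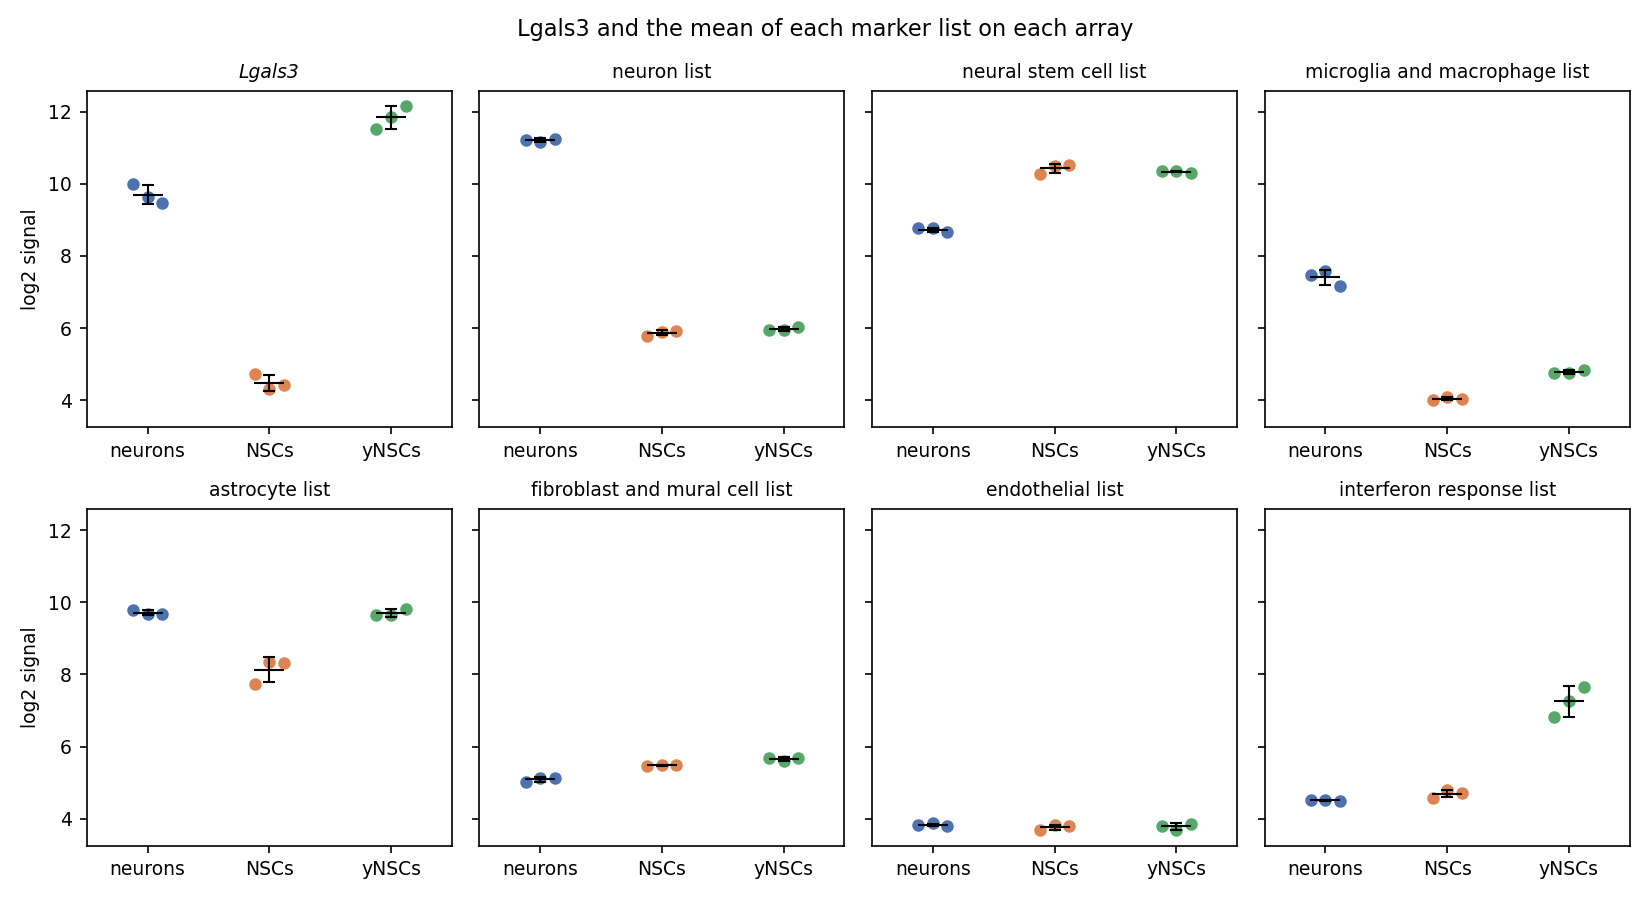
Signal of Lgals3 and mean signal of each marker list (log2) on each array, with points for arrays and bars for mean and SD (n = 3). In NSCs the microglia and astrocyte lists are lowest, as is Lgals3, while the interferon response list stands at 6.82 to 7.67 in yNSCs against 4.49 to 4.79 on the other arrays.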

How the data were processed

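RNA of 3 neuron, 3 NSC and 3 yNSC cultures was measured on Affymetrix Mouse430_2 arrays. Trizol-extracted total RNA was hybridised as biotin-labelled cRNA. Deposited were log2 signals that the authors computed with RMA, which the submitters' processing notes name without a version. They have 2 decimals and run from 1.73 to 14.46. Which arrays were normalized together is not given in the sources used here. Values were used as deposited, and no array was left out of the fit.

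Of 45101 probe sets, 64 controls were left out. The platform annotation gave 34945 probe sets with 1 symbol, 932 with several and 9160 with none named here, and gene IDs of 34741 matched the RefSeq table of GRCm38.p6. Each of 18193 genes was represented by its probe set of highest average signal. The 3 group means were fitted to the 9 arrays in R 4.3.3 with limma 3.58.1 (lmFit and eBayes, 6 residual and 5.59 prior degrees of freedom, two-sided), and p-values were adjusted by Benjamini-Hochberg over all 18193 genes. Tables and figures were made with Python 3.11.15, numpy 2.4.6, pandas 2.3.3 and matplotlib 3.10.9. The fit was tested on simulated data. Replicates are biological replicas by the labels, but whether they came from separate animals is not stated. The p-values set each difference against the spread within these groups of samples, which need not be the spread between animals. Array number, not read depth, limits precision.

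The members and the gene lists were chosen with earlier results of these data known. Genes named beside the members are the other galectins, up to 4 called and 2 not called genes of largest difference per pathway list and comparison, from which the text takes a part, and the 3 genes of nearest profile for members whose group means spanned at least 1. The second probe sets of Lgals2 and Lgalsl fall outside this rule. So do the marker genes given singly, namely Aif1, C1qa, Cd68, Slc1a3, Map2, Syp, Col1a1, Col3a1, Tagln and Acta2. All were chosen after their values were seen, as was the count of CG dinucleotides. The pathway list genes beyond the 72 measured were not analysed here. Alternatives took replicate letters as a block, fitted the 6 arrays of a comparison alone, dropped the 40% of genes with the weakest signal, repeated quantile normalization, centred arrays on the median of the named genes, averaged the probe sets per gene or tested every probe set, used a variance trend with robust prior, required a 2-fold difference, or left out 1 array at a time. Centring on the median of all probe sets was added after seeing the data.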

Additional observations from a re-analysis of the deposited data

How the results depend on the processing

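Over 19 alternatives, no member that was called changed direction, and no called gene named from the pathway lists did. Esrp1, not called for NSCs against neurons, changed sign after quantile normalization (0.163) and ranged from -0.148 to 0.052 when single arrays were left out. The member Lgals8, not called for NSCs against neurons either, also changed sign, with differences from -0.26 to 0.48. Several alternatives cannot move a difference of group means, and so do not check its size or direction. They are the block, the fit of 6 arrays, the filter of weak genes, the variance trend and the 2-fold minimum. Testing every probe set, read at the same main probe set, and leaving out an array outside the comparison cannot either. Of the 339 recomputed member differences, with these included, 333 moved by less than 1 SD of the replicates. The other 6 were Lgals8 (1.64) and Lgals9 (-0.82) for yNSCs against neurons and Lgals9 for NSCs against neurons (-1.04) after quantile normalization, Lgals9 for yNSCs against neurons (-1.18) after centring on the median of the named genes, and Cd44 with the mean of all its probe sets, 4.34 for yNSCs and 1.73 for NSCs against neurons. That mean takes in the probe set near background. Members called numbered 4 to 6 under every alternative. Lgals3bp for yNSCs against neurons lost its call, at 0.29, after quantile normalization and after centring on the named genes, and Lgals1 for yNSCs against NSCs gained one under 9 alternatives, 6 of processing and 3 that left out an array, at 0.33 to 0.40. Lgals9 lost its call for yNSCs against neurons under a 2-fold minimum (-0.99) and gained one for yNSCs against NSCs after centring on all probe sets (0.31). Only a 2-fold minimum moved the pathway counts by more than 1.5 times, to 19 higher and 10 lower for yNSCs against neurons, 13 lower for NSCs against neurons, and 9 higher and 6 lower for yNSCs against NSCs. Of 1553 recomputed differences of other named genes, 30 lost a call and 3 gained one. Of 1710 recomputed counts of single lists, mostly of few genes, 144 moved by more than 1.5 times. Replicate letters did not pair the samples, since deviations from the group means correlated at -0.11 to 0.10 between same-lettered arrays. With the letter as a block, 6, 5 and 4 members were called in yNSCs against neurons, NSCs against neurons and yNSCs against NSCs, and the pathway genes called higher and lower were 30 and 19, 31 and 27, and 22 and 12, while Lgals4 lost its call (adjusted p = 0.0561 in limma). Leaving out each array in turn gave 5 to 6, 5 to 6 and 4 to 5 members called, and pathway counts of 28 to 34 higher and 18 to 21 lower, 27 to 30 and 25 to 28, and 18 to 23 and 11 to 15. After centring on the median of all probe sets, the share of calls in the higher direction for yNSCs against neurons was 61.5%.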
